A study of Caenorhabditis elegans with 16 samples.

Results

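The genes *ego-1*, *rrf-1*, *rrf-2* and *rrf-3* encode the RNA-dependent RNA polymerases (RdRPs) of *C. elegans*, 4 of the 20476 protein-coding genes counted in these small RNA libraries. They were chosen by name and not by a measured value, but with earlier results of these data known. The deposited rows of protein-coding transcripts carry gene identifiers, so the 4 names were matched through Ensembl release 115, and the rows of all protein-coding isoforms of a gene were summed. Small RNA reads on each gene were counted separately on the same strand as the transcript (sense) and on the opposite strand (antisense). Levels are RPM, reads per 1000000 reads of the library outside the rRNA class.

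The study compared animals that lack the poly(U) polymerase CDE-1, by the *cde-1(tm936)* allele, with controls in 5 settings, all at 20 °C and all with 1 library per genotype. Total small RNA came from young adults, N2 (wild type) or *cde-1(tm936)*, with no transgene. Small RNAs bound to NRDE-3 came from embryos carrying *GFP::NRDE-3*, with *cde-1* intact or with *cde-1(tm936)*, and from L3 larvae that carried the same transgene in an *eri-1(mg366)* background, again with or without *cde-1(tm936)*. Both L3 groups thus lacked *eri-1*. Small RNAs bound to HRDE-1 or WAGO-1 came from young adults carrying *GFP::HRDE-1* or *GFP::WAGO-1*, with *cde-1* intact or with *cde-1(tm936)*. Each tagged Argonaute was driven by its own promoter and was pulled down with an anti-FLAG antibody. The libraries include no pull-down from untagged animals, so how much of the reads was bound to an Argonaute was not tested. The stages are those of the sample labels. In the methods one account of the pull-down names embryos and another speaks of synchronized animals. The L3 animals were fed HT115 bacteria and the others OP50, so stage, *eri-1* and food cannot be told apart between both NRDE-3 settings. For the Argonaute-bound RNA the methods state treatment with a phosphatase and a kinase before ligation. For total small RNA the treatment is not given in the sources used here.

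RdRPs copy RNA into complementary RNA. In *C. elegans* they make most of the small interfering RNAs (siRNAs) that Argonaute proteins carry, and an siRNA made on an mRNA is read as an antisense read of that gene. EGO-1 acts in the germline, and loss of it impairs fertility. RRF-1 acts in the soma and overlaps with EGO-1 in the germline. RRF-3 works with the ERI proteins and Dicer to make primary siRNAs, and loss of *rrf-3* makes animals more sensitive to RNAi. The role of RRF-2 alone is less well known. The reads described here are small RNAs that match the genes of these enzymes, not products of the enzymes on other genes. HRDE-1 is a nuclear Argonaute of the germline and WAGO-1 an Argonaute of germline granules. NRDE-3 is an Argonaute of somatic cells that lies in the nucleus when it carries siRNAs.

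In the WBcel235 annotation, *rrf-1* (WBGene00004508) spans chromosome I from 7643431 to 7649777 and *ego-1* (WBGene00001214) from 7650341 to 7656338. Both lie on the minus strand with 563 bases between them. *rrf-2* (WBGene00004509) is also on the minus strand of chromosome I, from 12098664 to 12106112. *rrf-3* (WBGene00004510) is on the plus strand of chromosome II, from 8162465 to 8168651. The joined exons are alike in length, 5.291 kb for *ego-1*, 5.025 kb for *rrf-1*, 4.86 kb for *rrf-2* and 5.53 kb for *rrf-3*. The only annotated gene whose exons overlap them is T05C12.11, which shares 37 bases with *rrf-3* on the opposite strand and had between 0 and 20 sense reads per library.

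The 10 libraries held between 5200610 and 9919222 counted reads, of which between 3041177 and 6806774 lay outside rRNA. In the embryo pair rRNA took 66.2% of the reads of the control and 26.9% of those of the mutant, so that pair was the least even in depth. Sense reads on *cde-1*, listed as *cid-1*, were lower in the mutant library of each of the 5 pairs, from 98.3 to 17.1 RPM in total small RNA and from 35 reads to 2 in embryos. The embryonic *mir-35* to *mir-42* family stood at 3541 and 3598 RPM in the embryo libraries and at 275 and 433 RPM in L3. In the young adult pull-downs it was at 131 and 102 RPM with HRDE-1 and at 75.6 and 47.3 RPM with WAGO-1, control first. In total small RNA of young adults it was higher than in embryos, at 7868 RPM in N2 and 5014 RPM in the mutant. It thus set embryos apart from adults among the pull-downs, but not against total small RNA. *lin-4*, a miRNA of larvae and adults, was at 0.329 and 0.352 RPM in embryos against 285 and 464 RPM in L3. In young adults it was at 48.0 and 48.5 RPM in total small RNA, 3.08 and 3.99 RPM with HRDE-1 and 2.10 and 3.23 RPM with WAGO-1. Vitellogenin mRNA fragments, from the adult intestine, reached 76608 and 75109 RPM in total small RNA. With HRDE-1 they were at 5376 RPM with *cde-1* intact and at 11002 RPM without it, and with WAGO-1 at 4676 and 6553 RPM. The part of these marker differences in the ratios was not tested.

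Without *cde-1*, antisense reads on all 4 RdRP genes were more frequent in total small RNA and in the HRDE-1 and WAGO-1 libraries. The median ratio of all protein-coding genes with at least 50 antisense reads in either library was above 1 there too, at 1.49, 1.30 and 1.06. With 1 library per genotype there was no replicate check and no test between genotypes. Ratios of RPM are therefore given with a 95% interval that covers counting error only, and PCR reads are not independent molecules. In whole animals and pull-downs, fewer cells of a type and less RNA per cell cannot be told apart.

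*ego-1*, the germline RdRP, had 190 antisense reads (29.7 RPM) in N2 and 318 (57.1 RPM) in *cde-1(tm936)* total small RNA. In the HRDE-1 pull-down its antisense reads numbered 407 (96.4 RPM) with *cde-1* intact and 1889 (279 RPM) without it. In the WAGO-1 pull-down they numbered 76 (13.3 RPM) and 250 (36.7 RPM). The mutant library was the higher of each young adult pair, and the HRDE-1 libraries held the highest levels of the gene. In the L3 NRDE-3 libraries *ego-1* had 50 antisense reads (9.67 RPM) in the *eri-1* control and 225 (45.6 RPM) in the double mutant. In the embryo NRDE-3 libraries it had 8 (2.63 RPM) and 35 (6.16 RPM), the lowest levels of the gene. The mutant to control ratios were 1.92 (1.61 to 2.30) in total small RNA, 2.90 (2.60 to 3.22) with HRDE-1, 2.76 (2.14 to 3.57) with WAGO-1 and 4.72 (3.48 to 6.42) with NRDE-3 in L3. The embryo ratio of 2.34 (1.09 to 5.05) rests on counts under the minimum of 50 reads used for calls.

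*rrf-1*, the neighbour of *ego-1* and an RdRP of both soma and germline, was likewise most abundant with HRDE-1 in both genotypes. It had 120 antisense reads (18.7 RPM) in N2 and 195 in *cde-1(tm936)* total small RNA. With HRDE-1 it had 269 (63.7 RPM) and 1183 (175 RPM), and with WAGO-1 111 (19.4 RPM) and 450 (66.1 RPM). The mutant library was again the higher of each pair. With NRDE-3 in L3 the counts were 33 (6.38 RPM) and 184 (37.3 RPM), and in embryos 16 (5.26 RPM) and 61 (10.7 RPM). The ratios were 1.87 (1.49 to 2.34), 2.74 (2.40 to 3.13), 3.40 (2.77 to 4.19), 5.85 (4.04 to 8.47) and 2.04 (1.18 to 3.54) in the same sequence of settings. Reads were listed on both protein-coding isoforms, with HRDE-1 167 and 812 antisense reads on F26A3.8a and 102 and 371 on F26A3.8b. Reads of exons they share cannot be told apart, so the part of each isoform is not known. *rrf-1* thus had the highest ratio of the 4 genes in L3 and with WAGO-1, although in neither setting did its interval lie clear of those of *ego-1* and *rrf-3*.

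*rrf-2*, the RdRP of least known function, differed from the others in where its antisense reads were found. In total small RNA it had 117 antisense reads (18.3 RPM) in N2 and 168 (30.2 RPM) in the mutant. With HRDE-1 it had 1589 (376 RPM) in control animals and 3832 (566 RPM) in mutants. With WAGO-1 it had 1713 (299.7 RPM) and 4460 (655 RPM), so each library of these germline Argonautes except the HRDE-1 library of the mutant held more antisense reads on *rrf-2*, whose exons are the shortest of the 4, than on the other 3 RdRP genes together. In that library *rrf-2* made up 44.1% of the antisense reads on the 4 genes, against 66.0% in its control, 88.3% with WAGO-1 in the control and 84.4% with WAGO-1 in the mutant. With NRDE-3 in L3 it had 155 (30.0 RPM) and 157 (31.9 RPM), control first, and in embryos 49 (16.1 RPM) and 70 (12.3 RPM). In neither NRDE-3 setting did *rrf-2* differ between genotypes beyond counting error, unlike the other RdRP genes. The mutant to control ratios were 1.65 (1.30 to 2.09) in total small RNA, 1.50 (1.42 to 1.60) with HRDE-1, 2.19 (2.07 to 2.31) with WAGO-1, 1.06 (0.851 to 1.33) in L3 and 0.765 (0.531 to 1.10) in embryos.

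*rrf-3*, the RdRP of the ERI pathway, had the fewest antisense reads of the 4 genes in control animals at the young adult stage and the largest gain with HRDE-1. It had 84 antisense reads (13.1 RPM) in N2 and 207 (37.2 RPM) in *cde-1(tm936)* total small RNA. With HRDE-1 it had 144 (34.1 RPM) in control animals and 1777 (263 RPM) in mutants, and with WAGO-1 41 (7.17 RPM) and 127 (18.7 RPM). The HRDE-1 pair lay farthest apart, and the WAGO-1 library of the mutant stayed below the HRDE-1 library of the control. With NRDE-3 in L3 the counts were 36 (6.96 RPM) and 154 (31.2 RPM), and in embryos 12 (3.95 RPM) and 77 (13.6 RPM). The ratios were 2.83 (2.20 to 3.65) in total small RNA, 7.70 (6.50 to 9.12) with HRDE-1, 2.60 (1.83 to 3.70) with WAGO-1, 4.49 (3.12 to 6.45) in L3 and 3.44 (1.87 to 6.31) in embryos.

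**Figure D1:**
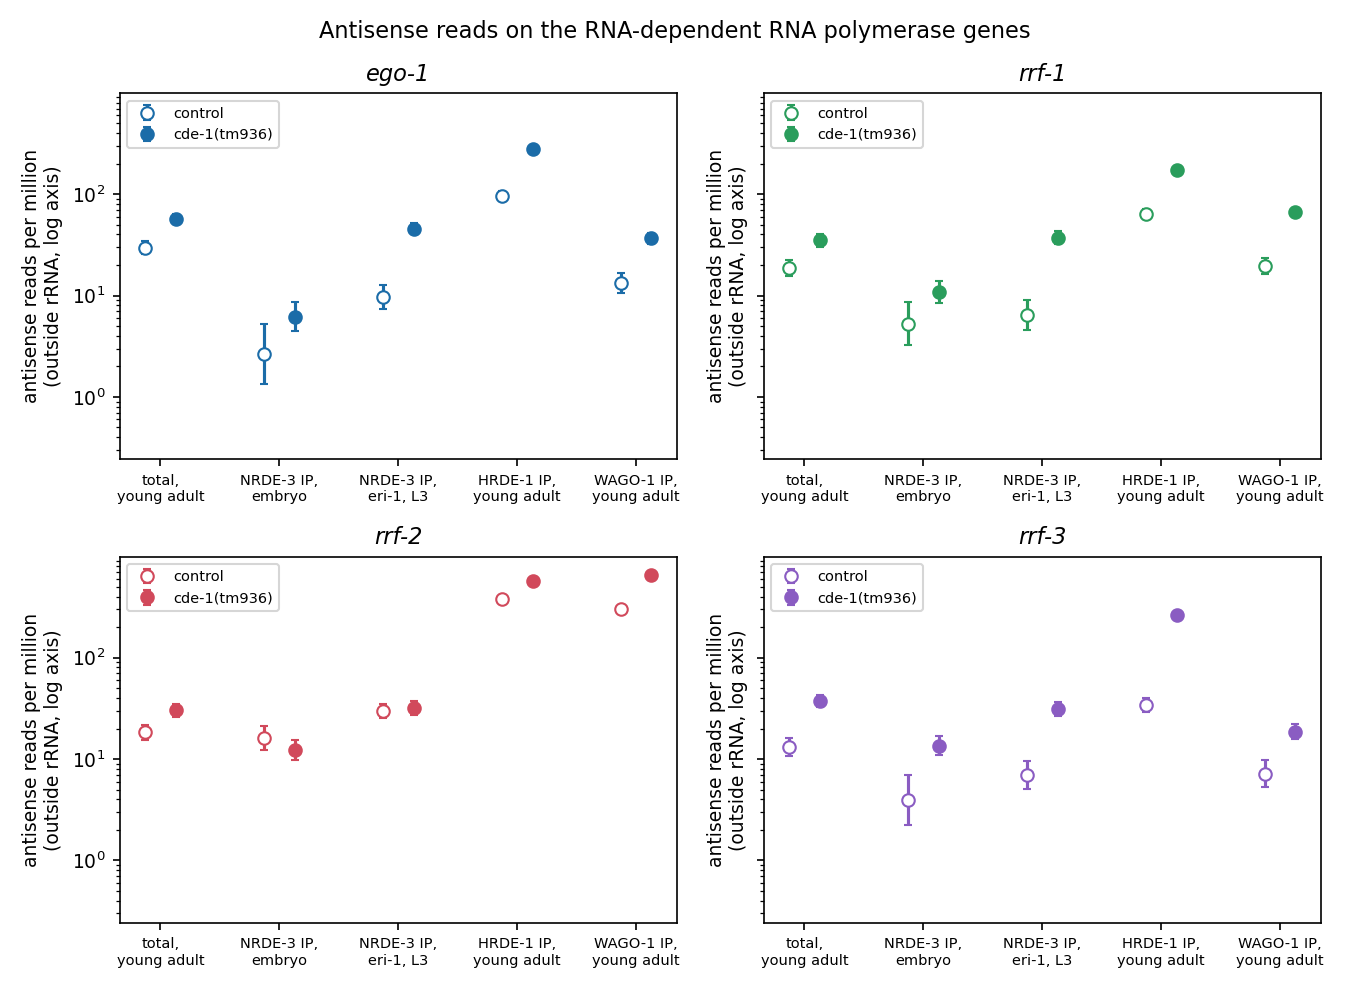
Antisense RPM (log axis) on each RdRP gene in the 10 libraries, by setting. Open points are controls, filled points *cde-1(tm936)*, bars 95% Wilson intervals (counting error only). *rrf-2* reached 655 RPM in the WAGO-1 library of the mutant, and *rrf-3* went from 34.1 to 263 RPM with HRDE-1.

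Whether these differences exceeded those of other genes was read against all protein-coding genes with at least 50 antisense reads in either library of a pair, called the genes tested. A gene was counted as higher or lower in the mutant when its ratio, with 1 read added to each count, was 2-fold or more. A gene can pass the filter through 1 library alone, which favours a call towards that library. In total small RNA 1 of 4 RdRP genes was higher, *rrf-3*, where 22.8% of 3713 genes were higher, 6.92% lower and the median ratio of all genes was 1.49. The ratio of *rrf-3* was reached or exceeded by 6.95% of the genes, and those of the other 3 RdRP genes by between 26.0% and 40.2%. Divided by the median of all genes, the ratios were 1.29 for *ego-1*, 1.25 for *rrf-1*, 1.11 for *rrf-2* and 1.90 for *rrf-3*. Scaling by trimmed mean of M values (TMM) turned the split of all genes from 848 higher and 257 lower to 260 and 477, and left *rrf-3* at 2.02. Antisense reads on all protein-coding genes took 11.1% of the reads outside rRNA in N2 and 13.7% in the mutant, and 9.03% and 13.4% in L3, and the part of this in the ratios was not tested.

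With HRDE-1, 3 of 4 RdRP genes were higher, where 28.0% of 7000 genes were higher, 11.8% lower and the median ratio was 1.30. *rrf-3* stood near the top, with 1.14% of all genes at or above its ratio, a ratio 5.92 times the median. *ego-1* and *rrf-1*, at 2.23 and 2.11 times the median, were reached or exceeded by 14.2% and 15.8% of genes, and *rrf-2*, at 1.16 times the median, by 41.96%. The ratio of *rrf-3* was 2.66 times (2.18 to 3.25) that of *ego-1*, 2.81 times (2.26 to 3.48) that of *rrf-1* and 5.12 times (4.28 to 6.12) that of *rrf-2*. The gain of *rrf-3* with HRDE-1 was also larger than its own gain with WAGO-1, by 2.96 times (2.00 to 4.38), and than that in total small RNA, by 2.72 times (2.00 to 3.69).

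With WAGO-1, 4 of 4 RdRP genes were higher, where 15.5% of 5135 genes were higher, 16.4% were lower and the median ratio was 1.06. Between 5.65% (*rrf-1*) and 12.9% (*rrf-2*) of genes reached or exceeded their ratios. *rrf-3*, with 41 control reads, passed the filter through the mutant library only. The 4 genes differed less from each other here than with HRDE-1. The ratio of *rrf-1* was 1.56 times (1.26 to 1.93) that of *rrf-2*, while *ego-1* and *rrf-3*, at 1.26 times (0.972 to 1.64) and 1.19 times (0.833 to 1.70), were not separated from *rrf-2* by counting error. *rrf-2* was the only RdRP gene with a gain that was smaller with HRDE-1 than with WAGO-1 beyond counting error, at 0.688 times (0.635 to 0.746). For *ego-1* the corresponding value was 1.05 (0.794 to 1.38) and for *rrf-1* 0.806 (0.630 to 1.03). Scaling by the median of ratios moved the split of all genes from 796 higher and 841 lower to 1068 and 646, with the 4 RdRP genes still higher.

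With NRDE-3 in *eri-1(mg366)* L3 larvae, 3 of 4 RdRP genes were higher, where 50.6% of 2945 genes were higher, 15.5% lower and the median ratio was 2.03. Since most genes were higher here, 3 of 4 is not far from the background. *rrf-1* and *rrf-3*, with 33 and 36 control reads, passed the filter through the mutant library only. The paper reports NRDE-3 in the cytoplasm of *eri-1* animals and in the nucleus when *cde-1* is lost too. It describes cytoplasmic NRDE-3 as not bound to siRNAs. Antisense reads were 12.6% of protein-coding reads in the L3 control, against 14.8% in N2 total small RNA and 78.3% in the embryo control. How much of the L3 reads was bound to NRDE-3 was not tested. Relative to the median the ratios were 2.33 for *ego-1*, 2.89 for *rrf-1* and 2.22 for *rrf-3*. *rrf-2* was at 0.525 times the median, with 70.2% of genes at or above it. Its ratio of 1.06 went to between 0.715 and 0.823 when scaled by antisense reads on protein-coding genes, by TMM or by the median of ratios, and to 0.958 with reads less sense rRNA, so no direction can be given for it. The ratios of *ego-1*, *rrf-1* and *rrf-3* exceeded that of *rrf-2* by 4.44 times (3.04 to 6.49), 5.50 times (3.57 to 8.48) and 4.22 times (2.76 to 6.46). The split of all genes, 1490 higher and 457 lower, became 949 and 664 when scaled by antisense reads on protein-coding genes.

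With NRDE-3 in embryos 27.5% of 1578 genes were higher and 21.5% lower. Among the RdRP genes 3 had at least 50 antisense reads in either library and 1 of them was higher, *rrf-3*. All 3 reached 50 only in the mutant library, the deeper of the pair. Their control reads were 16 for *rrf-1*, 49 for *rrf-2* and 12 for *rrf-3*. The filter thus favoured higher calls here, and nothing is concluded from the count beside that share. *rrf-1* lay just inside 2-fold once 1 read was added, and passed it when scaled by reads less sense rRNA, by TMM or by the median of ratios. With both latter scalings the split of all genes moved from 434 higher and 340 lower to 585 and 279, or 585 and 278. *rrf-2* was the lowest of the 4, at 0.620 times the median of all genes. The ratio of *rrf-3* was 4.49 times (2.21 to 9.13) that of *rrf-2*, and those of *ego-1* and *rrf-1* were 3.06 times (1.31 to 7.17) and 2.67 times (1.38 to 5.17). The rRNA share differed most in this pair, as given above, and its part in these ratios was not tested. In both NRDE-3 settings *rrf-2* stood below the other RdRP genes beyond counting error.

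**Figure D2:**
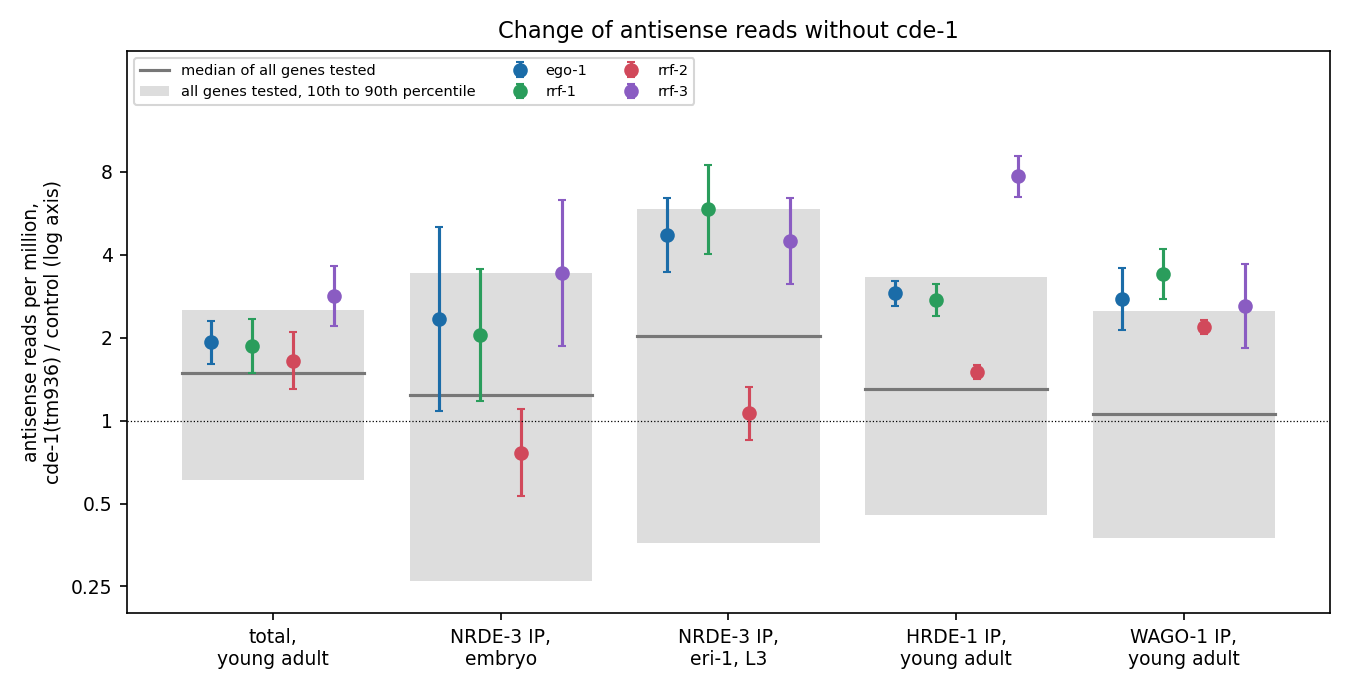
Ratio of antisense RPM in *cde-1(tm936)* to control (log axis) for each RdRP gene in the 5 settings, with 95% intervals for counting error. Grey boxes span the 10th to 90th percentile of all genes tested and the grey line is their median. *rrf-3* with HRDE-1, at 7.70, lies above its box, as do *rrf-3* in total small RNA and *ego-1*, *rrf-1* and *rrf-3* with WAGO-1. *rrf-2* is the lowest of the 4 in each setting. It is not separated by counting error from *ego-1* and *rrf-1* in total small RNA, nor from *ego-1* and *rrf-3* with WAGO-1.

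The Argonaute libraries differed in which RdRP genes their small RNAs matched. With *cde-1* intact, antisense reads on all 4 genes were more frequent with HRDE-1 than in total small RNA, where 83.6% of 5746 genes were higher, 5.62% lower and the median ratio was 4.77. The ratio of *rrf-2* was 20.6 (17.1 to 24.9), and only 6.93% of genes reached it. The ratios of *ego-1*, *rrf-1* and *rrf-3*, 3.25 (2.74 to 3.86), 3.40 (2.74 to 4.22) and 2.60 (1.99 to 3.40), were below the median of all genes. When each library was scaled by its antisense reads on protein-coding genes, these ratios turned to 0.588, 0.615 and 0.470, while *rrf-2* stayed above 1 at 3.73. The split of all genes changed likewise, from 4806 higher and 323 lower to 1198 and 1539.

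With WAGO-1 and *cde-1* intact, only *rrf-2* was 2-fold higher than in total small RNA, at 16.4 (13.6 to 19.8), where 64.9% of 5124 genes were higher, 13.5% lower and the median was 3.94. *ego-1* was 2-fold lower, at 0.448 (0.343 to 0.585). *rrf-3*, at 0.547 (0.376 to 0.794), and *rrf-1*, at 1.04 (0.800 to 1.34), were within 2-fold. Scaled by antisense reads on protein-coding genes, *rrf-2* was at 2.65 and the other 3 were all lower, between 0.0723 and 0.167, and the split of all genes went from 3325 higher and 693 lower to 900 and 2302. Both comparisons share the N2 library, and the tagged strains differ from N2 by the transgene and possibly by the RNA treatment, so those cannot be told apart from the Argonaute.

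In *cde-1(tm936)* the same comparison gave 18.8 (16.1 to 21.9) with HRDE-1 and 21.7 (18.6 to 25.3) with WAGO-1 for *rrf-2*. With HRDE-1 all 4 RdRP genes were higher than in total small RNA, where 82.1% of 7188 genes were higher, 7.76% lower and the median was 4.52. *rrf-3* was at 7.07 (6.12 to 8.16), above the median of all genes and above *ego-1* at 4.89 and *rrf-1* at 5.00. With WAGO-1 only *rrf-2* was 2-fold higher, where 54.8% of 5658 genes were higher, 21.8% lower and the median was 2.55. *rrf-1* was at 1.89 (1.60 to 2.23), *ego-1* at 0.643 (0.545 to 0.759) and *rrf-3* at 0.502 (0.403 to 0.626). With the scaling by antisense reads on protein-coding genes, only *rrf-2* was higher in either comparison, the other 3 were lower with WAGO-1, and the splits went from 5904 higher and 558 lower to 1248 and 1583 with HRDE-1 and from 3101 and 1236 to 1141 and 2856 with WAGO-1.

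**Figure D3:**
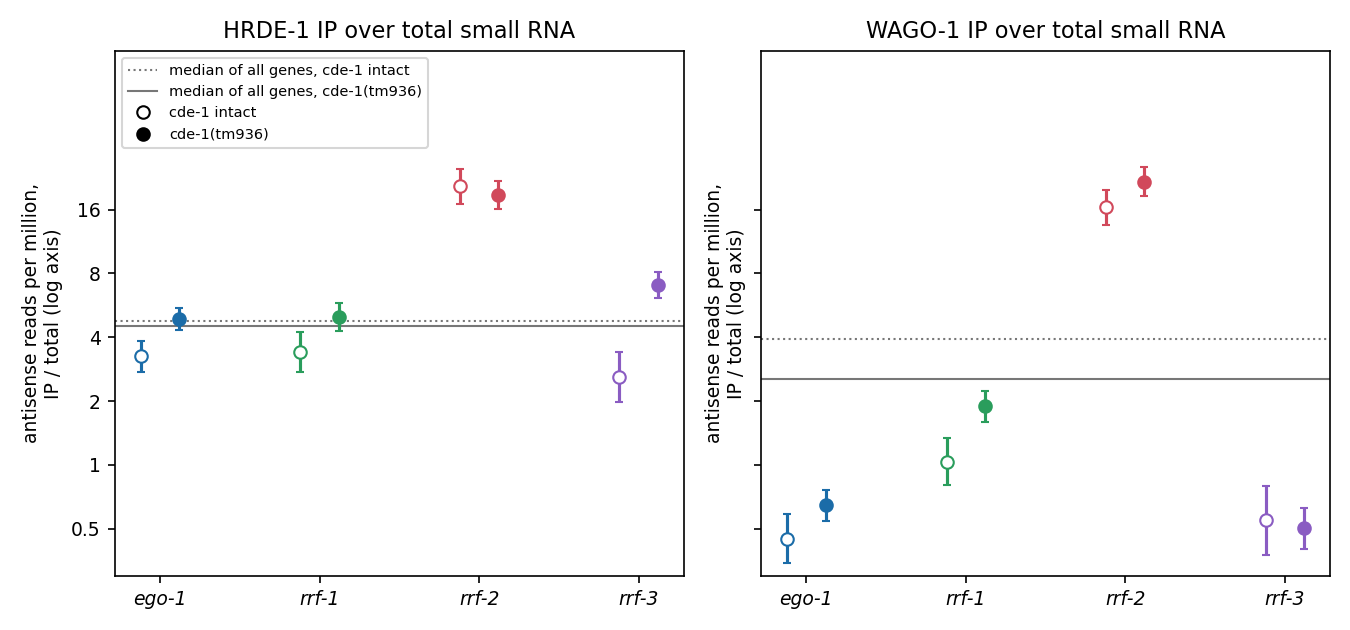
Antisense RPM in the HRDE-1 (left) and WAGO-1 (right) libraries over total small RNA (log axis) for each RdRP gene, with 95% counting intervals. Open points are animals with *cde-1* intact, filled points *cde-1(tm936)*, and lines mark the medians of all genes. *rrf-2*, between 16.4 and 21.7, lies above both lines in each panel, and *ego-1* and *rrf-3* are below 1 with WAGO-1.

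Set directly against each other with *cde-1* intact, 3 of 4 RdRP genes were 2-fold or more higher with HRDE-1 than with WAGO-1, where 42.7% of 5876 genes were higher with HRDE-1, 9.84% lower and the median was 1.69. *ego-1* was at 7.25 (5.68 to 9.27), a ratio that 5.38% of genes reached, *rrf-3* at 4.76 (3.36 to 6.73) and *rrf-1* at 3.28 (2.63 to 4.09). *rrf-2*, at 1.26 (1.17 to 1.35), was also higher with HRDE-1 beyond counting error. In *cde-1(tm936)*, where 54.2% of 6998 genes were higher with HRDE-1, 8.93% lower and the median was 2.34, *rrf-3* was at 14.1 (11.8 to 16.9), a ratio that 2.97% of genes reached. *ego-1* was at 7.60 (6.66 to 8.67), *rrf-1* at 2.65 (2.37 to 2.95) and *rrf-2* at 0.865 (0.828 to 0.903).

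Between genes, levels were compared per kb of joined exons. With HRDE-1 in control animals antisense reads on *rrf-2* stood at 77.5 RPM per kb, followed by *ego-1* at 18.2, *rrf-1* at 12.7 and *rrf-3* at 6.17, all steps beyond counting error. In the mutant *rrf-2* was at 117 RPM per kb, *ego-1* at 52.8, *rrf-3* at 47.5 and *rrf-1* at 34.8, so *rrf-3* moved from last place to the place after *ego-1*. With WAGO-1 the order was *rrf-2*, *rrf-1*, *ego-1*, *rrf-3* in both genotypes, at 61.7, 3.86, 2.51 and 1.30 RPM per kb in the control and 135, 13.2, 6.94 and 3.37 in the mutant. *rrf-2* was thus 16.0 times (13.2 to 19.3) the next gene with WAGO-1 in the control and 10.2 times (9.30 to 11.3) in the mutant. In total small RNA *ego-1* came first instead, at 5.61 RPM per kb in N2 and 10.8 in the mutant. The following genes were not all separated, since in N2 *rrf-2* and *rrf-1* (3.76 and 3.73), and in the mutant *rrf-1*, *rrf-3* and *rrf-2* (6.97, 6.72 and 6.20), differed by less than counting error.

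With NRDE-3 the order depended on the genotype. In the *eri-1* L3 control *rrf-2* was at 6.17 RPM per kb, 3.37 times (2.45 to 4.64) *ego-1* at 1.83, and *ego-1*, *rrf-1* and *rrf-3* were not separated. In the *eri-1;cde-1* library no neighbouring genes were separated, between 5.65 RPM per kb for *rrf-3* and 8.63 for *ego-1*. In embryos *rrf-2* led the control at 3.32 RPM per kb, 3.17 times (1.80 to 5.57) *rrf-1* at 1.05. In the embryo library of the mutant *rrf-2*, *rrf-3* and *rrf-1* were within counting error of each other, at 2.54, 2.45 and 2.14 RPM per kb, and *ego-1* was lower at 1.17. The share of *rrf-2* among the antisense reads on the 4 genes was 57.6% in the embryo control and 28.8% in the mutant, and 56.6% and 21.8% in L3. No total small RNA library of these stages was given, so enrichment with NRDE-3 was not computed.

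The antisense share of the reads on each RdRP gene was higher in the mutant in every setting, as was that over all protein-coding reads. For *rrf-2* the intervals overlapped in total small RNA, L3 and embryos. Sense reads, fragments of the mRNAs, were within 2-fold wherever there were 50 or more. In embryos the shares were between 27.6% (*ego-1*) and 51.6% (*rrf-2*) in the control. In the mutant they were between 69.3% (*rrf-2*) and 89.5% (*rrf-3*), where all protein-coding reads gave 78.3% and 88.3%. With HRDE-1 the antisense share of *rrf-3* was 61.5% (55.2 to 67.5, Wilson) in control animals and 94.2% in mutants, and that of *ego-1* 66.1% and 89.5%. *rrf-2* was almost wholly antisense in the germline Argonautes, at 98.3% and 99.2% with HRDE-1 and 96.0% and 98.0% with WAGO-1. Over all protein-coding reads the antisense share was 72.1% and 74.4% with HRDE-1 and 80.3% and 82.5% with WAGO-1, so *ego-1* and *rrf-3* lay below it in both controls. In L3 the antisense share of *ego-1* was 13.4% in the control and 57.5% in the mutant, that of *rrf-1* 11.0% and 36.6% and that of *rrf-3* 13.2% and 45.3%, where all protein-coding reads gave 12.6% and 20.6%. The share of *rrf-2* was 62.5% and 68.9%, high in both L3 libraries. In total small RNA the shares were between 23.9% (*rrf-1*) and 46.8% (*rrf-2*) in N2 and between 38.5% (*rrf-1*) and 57.3% (*rrf-3*) in the mutant, against 14.8% and 18.3% over all protein-coding reads.

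**Figure D4:**
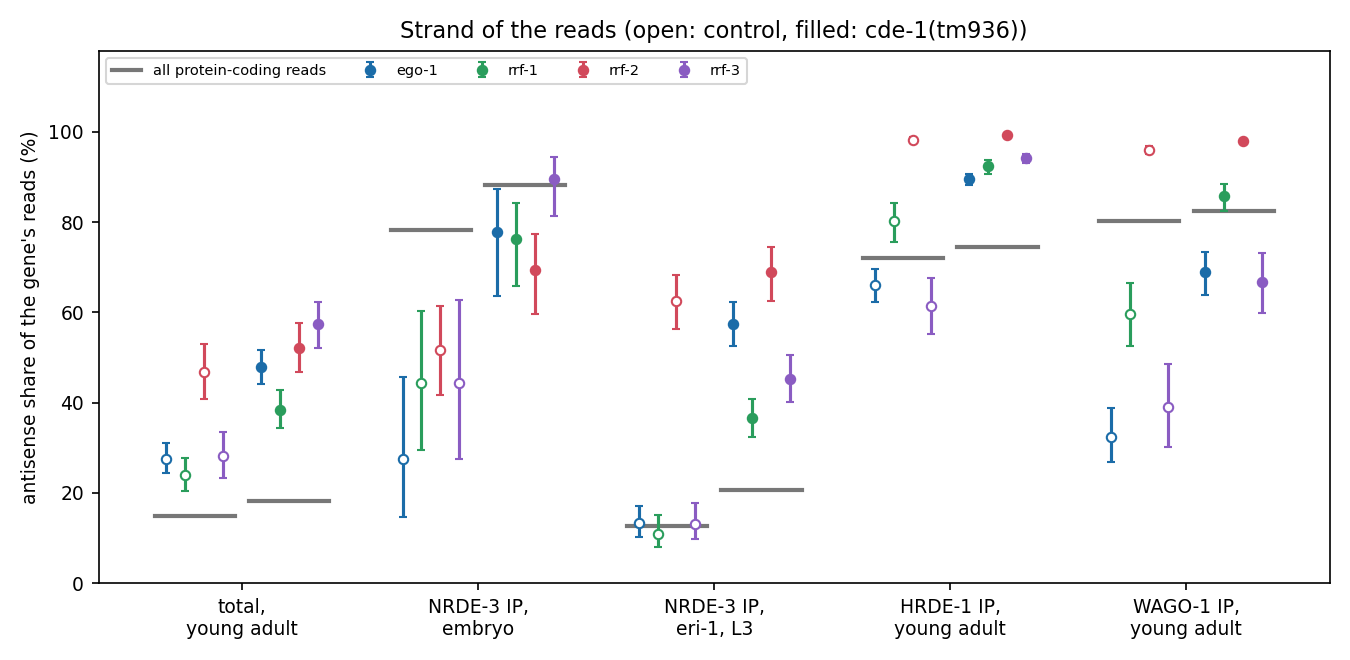
Antisense share of each RdRP gene's reads (%) in the 5 settings, open points for controls and filled points for *cde-1(tm936)*, with 95% Wilson intervals. Grey lines mark the share over all protein-coding reads of the library. The filled points lie above the open ones for each gene, and *rrf-2* is between 96.0% and 99.2% with HRDE-1 and WAGO-1. Its intervals overlap in total small RNA, L3 and embryos.

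Sense reads were counted by the same rule, and 0 of 4 RdRP genes were called in total small RNA, where 2.18% of 8473 genes were higher and 1.51% lower. *ego-1* had 498 sense reads in N2 and 345 in the mutant, a ratio of 0.796 (0.694 to 0.913), and *rrf-2* had 133 and 154, a ratio of 1.33 (1.06 to 1.68). *ego-1* had a lower sense RPM in the mutant in the other settings too. Its ratio was 0.538 (0.446 to 0.648) in L3, where 1.03% of 7834 genes were higher and 6.29% lower, and became 2-fold lower when scaled by reads less sense rRNA. It was 0.660 (0.546 to 0.797) with HRDE-1, where 3.88% of 5258 genes were higher and 3.96% lower, and 0.601 (0.472 to 0.765) with WAGO-1, where 4.46% of 4396 genes were higher and 14.5% lower. The medians of all genes were below 1 too, at 0.808 in L3, 0.913 with HRDE-1 and 0.749 with WAGO-1. Of the genes tested, 91.2%, 87.2% and 71.0% were at or above *ego-1* in these settings. The ratios of *rrf-1* and *rrf-3* in these 3 settings were between 0.756 and 1.25, and *rrf-2* was at 0.801 in L3, 0.668 with HRDE-1 (under 50 reads) and 1.09 with WAGO-1. In embryos each RdRP gene had fewer than 50 sense reads per library, from 9 to 46, and ratios between 0.255 and 0.509, where 91.2% of 1377 genes were 2-fold lower and the median was 0.272. Scaled by sense reads on protein-coding genes, the embryo ratios became 0.543 for *ego-1*, 1.08 for *rrf-1*, 0.768 for *rrf-2* and 0.684 for *rrf-3*, the median of all genes 0.579 and the split of all genes went from 19 higher and 1256 lower to 39 and 474, so no direction can be given for *rrf-1*. With the same scaling the split went from 81 higher and 493 lower to 125 and 230 in L3 and from 196 and 639 to 261 and 401 with WAGO-1.

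The genes whose antisense pattern over the 10 libraries was most like that of each RdRP gene were sought among 8429 protein-coding genes. Likeness was the mean absolute difference of log2(RPM + 1), each gene centred on its own mean. It is a description over libraries that share strains and depth, and no shared control follows from it. The genes were picked on these same 10 libraries, so mutant to control ratios like those of the RdRP gene follow from the choice. For *rrf-3* the nearest were *hcp-6*, *gmps-1* and *apg-1*, at 0.198, 0.220 and 0.222, where the median of all genes was 1.19. Their mutant to control ratios with HRDE-1 were 4.55, 4.83 and 6.54, each above their ratios with WAGO-1, as for *rrf-3*. For *ego-1* they were *emb-30*, a subunit of the anaphase-promoting complex, *tofu-4* and *sart-3* (0.254, 0.256 and 0.261, median 1.23), and for *rrf-1* *ran-2*, *hrpf-2* and *such-1* (0.184, 0.189 and 0.194, median 0.954). For *rrf-2* they were F08A8.8, C09F5.1 and Y56A3A.7 (0.205, 0.208 and 0.225, median 1.39), whose ratios in embryos were 0.536, 0.577 and 0.815, all below 1 like that of *rrf-2*. Among the 4 RdRP genes themselves *ego-1* and *rrf-3* were 0.553 apart, *rrf-1* and *rrf-3* 0.575, *ego-1* and *rrf-1* 0.614, and *rrf-2* between 1.23 and 1.64 from the others.

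Other genes of the small RNA pathways, 29 in all, give the setting for the RdRP genes. In total small RNA 22 of them reached 50 reads, 8 had 2-fold more antisense reads in the mutant and 1 fewer, with a median ratio of 1.55, where 22.8% of all genes tested were higher, 6.92% lower and the median was 1.49. With HRDE-1 8 of 28 were higher and 0 lower (median 1.56), where 28.0% of all genes were higher and 11.8% lower (median 1.30), so the count of higher genes is near the background. With WAGO-1 2 of 20 were higher and 0 lower (median 1.19), where 15.5% of all genes were higher and 16.4% lower (median 1.06). With NRDE-3 12 of 16 were higher and 0 lower in L3 (median 3.14), where 50.6% of all genes were higher and 15.5% lower (median 2.03). In embryos 6 of 10 were higher and 1 lower (median 2.26), where 27.5% of all genes were higher and 21.5% lower (median 1.23). Of these 10 only *nrde-3* had 50 reads in the control, so the others passed the filter through the deeper mutant library. In L3 *drh-3* (19 and 117 reads, control first), *mut-15* (25 and 131) and *wago-1* (12 and 110) also passed through the mutant alone. That favours higher calls, so no excess over all genes is read from the NRDE-3 counts. The higher genes with WAGO-1 were *csr-1*, an Argonaute whose siRNAs EGO-1 makes, at 4.46, and *dcr-1*, the Dicer that works with RRF-3, at 2.82. Both were higher in all 5 settings, and *dcr-1* had the highest ratio of the list in total small RNA (3.19) and with HRDE-1 (4.88), below the 7.70 of *rrf-3*.

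The partners of the RdRPs are given by role, with the shares of all genes higher as above, 28.0% with HRDE-1, 50.6% in L3, 15.5% with WAGO-1 and 22.8% in total small RNA. With between 1 and 10 genes tested per role, these counts are a description, and no difference between roles was tested. *drh-3*, the helicase that RdRPs need, had ratios of 1.54 in total small RNA, 6.46 in L3, 2.79 with HRDE-1 and 1.48 with WAGO-1, and was higher in L3 and with HRDE-1. *ekl-1*, a Tudor protein of the same complexes, was within 2-fold with HRDE-1 (1.26) and WAGO-1 (1.25) and had under 50 reads elsewhere. Of the 6 genes of the ERI complex and Dicer, partners of RRF-3, 5 could be tested with HRDE-1 and *dcr-1* alone was higher, a count near the background. Of the 8 mutator genes, which act with RdRPs to amplify siRNAs, 2 were higher with HRDE-1 (*mut-7* and *nyn-1*), 3 of 4 tested in L3 and 0 of 4 with WAGO-1, counts too small to be set apart from the shares of all genes. Of the 10 Argonaute genes, 4 were higher with HRDE-1, 6 of 8 tested in L3 and 6 of 9 in total small RNA, the near-identical *alg-3* and *alg-4* among the last. With WAGO-1, 1 of 8 tested was higher. In embryos 4 of 7 were higher and 1 lower, where 27.5% of all genes were higher and 21.5% lower. The limit of the filter given above for the NRDE-3 settings holds for these counts by role too. The highest ratio in embryos, 16.2 (5.14 to 51.3) for *wago-1*, rests on 3 control reads, and the lowest was 0.280 for *nrde-3*, whose mRNA is also made from the transgene in those strains.

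**Figure D5:**
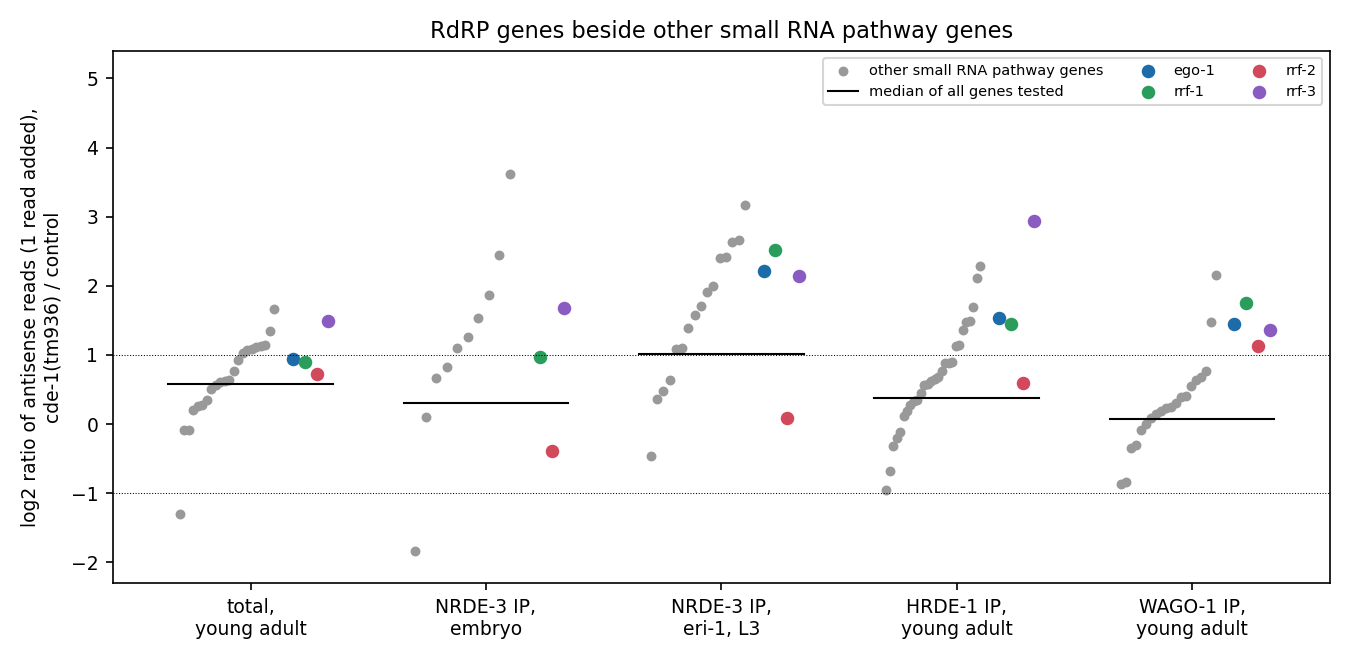
log2 ratio of antisense reads (1 read added), *cde-1(tm936)* over control, for other small RNA pathway genes (grey, those with at least 50 reads in either library, sorted within a setting) and the RdRP genes (coloured). Black lines mark the median of all genes and dotted lines 2-fold. *rrf-3* is above each grey point with HRDE-1, and *rrf-2* is the lowest coloured point in each setting, though not always beyond counting error.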

How the data were processed

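Small RNAs of 10 *C. elegans* libraries, 1 per group, were analysed. The authors kept clean reads of 18 to 30 nt, aligned them to the WS243 transcripts with Bowtie2 (named also in the submitters' processing notes, version not given in the sources used here) and deposited, per transcript, counts of reads on the same and on the opposite strand, not normalized. Isoform rows listed as protein-coding were summed per gene; 20173 of 20476 genes were named by Ensembl release 115 (WBcel235). In each library 59 rows headed as antisense RNAs, and rows without a class, were left out. RPM was computed over reads outside class rRNA (1000000 as the scale), with 95% Wilson intervals for shares and log-normal intervals for ratios. Genes with 50 or more reads on a strand in either library of a pair were compared, and 2-fold ratios (1 read added) counted. The text names the 4 RdRP genes, the highest and lowest of 29 pathway genes, and the 3 genes with the pattern nearest to each RdRP gene. Other pathway genes were named after their values were seen. These members, lists and rules were chosen with earlier results of these data known. Alternatives were other denominators, TMM (edgeR 4.0.16), median-of-ratios factors (DESeq2 1.42.0, R 4.3.3), no filter, and 1 isoform row per gene. Scripts (Python 3.11.15 with matplotlib 3.10.9, scipy 1.17.1, pandas 2.3.3 and numpy 2.4.6) were tested on simulated data. The 6 columns of the 26S rRNA tail table could not be matched to samples by name and were not used. The counts hold no read lengths, so classes of siRNA were not separated, and no sequences are shown.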

Additional observations from a re-analysis of the deposited data

Results flagged for a closer look

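Some changes of direction between settings were noted, in each case because the ratio was above 1 in one setting and below 1 in another. With 1 library per group these differences were not tested. Antisense reads on *rrf-2* had a mutant to control ratio of 0.765 (0.531 to 1.10) with NRDE-3 in embryos, not separated from 1 by counting error, and 2.19 (2.07 to 2.31) with WAGO-1. Sense reads on *rrf-2* had a ratio of 0.361 with NRDE-3 in embryos, where 91.2% of all genes tested were 2-fold lower, and 1.33 in total small RNA, and these became 0.768 and 1.37 when scaled by sense reads on protein-coding genes. Sense reads on *rrf-1* had a ratio of 0.509 with NRDE-3 in embryos and 1.25 with NRDE-3 in *eri-1(mg366)* L3 larvae, from 20 and 19 reads in embryos and 267 and 319 in L3, control first. Scaled by sense reads on protein-coding genes they were 1.08 and 1.51, both above 1, so this change of direction depends on the denominator. Antisense reads on *rrf-2* were 1.26 times as frequent with HRDE-1 as with WAGO-1 in animals with *cde-1* intact and 0.865 times in *cde-1(tm936)*.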

How the results depend on the processing

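Of the members' ratios under the alternatives, 198 stayed on their side of 1 and 10 crossed it. Of the latter, 3 had been 2-fold or more, all in HRDE-1 against total small RNA with *cde-1* intact and antisense reads on protein-coding genes as denominator (*ego-1* 0.588, *rrf-1* 0.615, *rrf-3* 0.470). The others were *rrf-2* in L3, from 1.06 to 0.958 with reads less sense rRNA, 0.715 with antisense protein-coding reads, 0.789 with TMM and 0.823 with the median of ratios, *rrf-1* in WAGO-1 against total small RNA with antisense protein-coding reads, from 1.04 to 0.167 with *cde-1* intact and from 1.89 to 0.364 in *cde-1(tm936)*, and sense reads on *rrf-1* in embryos, from 0.509 to 1.08 with sense protein-coding reads. Of the counts, 159 stayed within 1.5 times and 39 moved. With antisense protein-coding reads as denominator, genes higher and lower than total small RNA numbered 1198 and 1539 for HRDE-1 and 900 and 2302 for WAGO-1 with *cde-1* intact, 1248 and 1583 and 1141 and 2856 in *cde-1(tm936)*. RdRP genes higher with HRDE-1 went from 4 to 1 in both genotypes with 1 lower when *cde-1* was intact, and with WAGO-1 3 were lower in both. For *cde-1(tm936)* against control it gave 398 higher genes in total small RNA and 949 in L3. TMM and the median of ratios gave 260 and 272 higher and 477 and 460 lower genes in total small RNA. RdRP genes higher in embryos went from 1 to 2 with reads less sense rRNA, TMM, the median of ratios (*rrf-1* added) and no filter (*ego-1* added). Without the filter, higher and lower genes were 4840 and 1144 in total small RNA, 1815 and 5322 in embryos and 6111 and 2684 in L3, with 4008 lower with HRDE-1, and 2161 and 4052 with WAGO-1. On sense reads, scaling by sense protein-coding reads gave 39 higher and 474 lower in embryos, 125 and 230 in L3, and 401 lower with WAGO-1. Reads less sense rRNA gave 791 lower in L3 with 1 RdRP gene, *ego-1*, lower. The cause of these shifts was not tested. The median antisense ratio of all genes in total small RNA was 1.49, 1.20 with antisense protein-coding reads, 1.07 with TMM and 1.08 with the median of ratios, and in embryos 1.23, 1.26, 1.52 and 1.54. The ratio of *rrf-3* with HRDE-1 ranged from 7.14 to 7.97 and that of *rrf-2* with WAGO-1 from 2.10 to 2.54. In embryos the control library held 3041177 reads outside rRNA and 8 antisense reads on *ego-1*, so depth limits most there. No paired analysis within a setting was possible because each group had 1 library and the labels carry no replicate numbers as a block. For the same reason no replicate could be left out. A fit over all libraries with the 5 settings as blocks, which would treat different stages and Argonautes as replicates, was not run.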

Other observations

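Another transcript of *rrf-1*, F26A3.8c, is listed as a non-coding RNA and was kept out of the sums. Reads of any exons it shares with the protein-coding isoforms cannot be told apart from theirs. It had 13 antisense reads in N2 and 4 in *cde-1(tm936)* total small RNA, a ratio of 0.354 (0.115 to 1.08). With HRDE-1 it had 23 and 31, a ratio of 0.841 (0.490 to 1.44), and with WAGO-1 19 and 26, a ratio of 1.15 (0.636 to 2.08). The counts with NRDE-3 were between 3 and 8.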
